A study of Mus musculus with 9 samples.

Results

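The phagocyte NADPH oxidase, or NADPH oxidase 2, was described through the transcripts of 5 of its genes, Cybb, Cyba, Ncf1, Ncf4 and Rac2. They were taken by symbol, and all 5 stood among the 24411 genes of each deposited file and among the 14867 genes tested. The files cover the hippocampi of 9 male C57BL/6J mice of wild type genotype, 10 weeks old by the labels, with 1 RNA library per mouse and 3 mice per group. CUG300 mice given CWG-cPIP and CUG300 mice given vehicle carried AAV9 with 300 CTG repeats behind the coding sequence of Egfp, and CUG10 mice given vehicle carried the same kind of virus with 10 repeats. CWG-cPIP is a cyclic pyrrole-imidazole polyamide that binds CAG and CTG repeat DNA, and it or its vehicle was injected together with the virus into CA1 on both sides, 10 days before the tissue was taken. Every mouse was thus injected and carried virus, no group was free of both, and the whole hippocampus holds cells that the virus did not enter. The promoter of the viral gene is not given in the sources used here.

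In phagocytes, this oxidase passes electrons from NADPH across a membrane onto oxygen and releases superoxide, which is known from the killing of microbes and, in the brain, from activated microglia and macrophages. Cybb encodes gp91phox, the catalytic subunit, and Cyba encodes p22phox, its partner in the membrane. Ncf1 encodes p47phox, the organizer that carries the cytosolic subunits to the membrane, Ncf4 encodes p40phox, which binds phosphoinositides, and Rac2 encodes the small GTPase that switches the assembled complex on in blood cells. In humans, loss of CYBB, CYBA or NCF1 causes chronic granulomatous disease.

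In GRCm38, Cybb lies on chromosome X from 9435252 to 9487766 on the minus strand, Cyba on chromosome 8 from 122424771 to 122432940 on the minus strand, and Ncf1 on chromosome 5 from 134220053 to 134229628 on the minus strand. Ncf4 and Rac2 share chromosome 15, where Ncf4 lies from 78244164 to 78262582 on the plus strand and Rac2 from 78559169 to 78572783 on the minus strand. The gap between them is 296587 bases and holds 10 protein-coding genes, of which 9 were tested and 3 (Csf2rb, Csf2rb2 and Il2rb, named after their values were seen) were higher with 300 than with 10 repeats under vehicle. Csf2rb and Csf2rb2 are close copies, so reads could be split between them. By RefSeq, a long noncoding RNA overlaps Cybb and another overlaps Ncf1. Neither stands in the files under its symbol, and whether counting used the strand is not stated, so reads from them cannot be told apart from those of Cybb and Ncf1.

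Promoter sequences, 250 bases before to 50 after the start site, were held for 3 of the 5 genes (RefSeq, GRCm38.p6), and they are shown because the factors searched for in them include PU.1 and interferon regulatory factors, which are known to act on oxidase genes and whose transcripts were measured too. The windows are chrX:9469275-9469574 for Cybb, chr8:122432891-122433190 for Cyba and chr5:134229576-134229875 for Ncf1, all on the minus strand and written 5′ to 3′. The start site of the Cybb window lies inside the annotated span of the gene given above, so it is an inner transcript start and not the outermost end of the gene. Capitals mark matches, on either strand, to the PU.1 core GAGGAA, to the ETS-IRF composite (GGAA, 2 bases of any kind, GAAA), to the interferon-stimulated response element (GAAA, 2 bases of any kind, GAAA) and to the gamma-activated site (TTC, 3 bases of any kind, GAA).
Cybb: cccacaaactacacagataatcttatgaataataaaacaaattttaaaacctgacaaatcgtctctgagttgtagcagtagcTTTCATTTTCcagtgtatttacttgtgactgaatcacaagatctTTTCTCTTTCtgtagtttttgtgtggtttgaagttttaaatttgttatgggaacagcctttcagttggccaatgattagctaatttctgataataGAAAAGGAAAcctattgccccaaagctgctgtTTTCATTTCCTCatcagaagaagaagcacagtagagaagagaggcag
Cyba: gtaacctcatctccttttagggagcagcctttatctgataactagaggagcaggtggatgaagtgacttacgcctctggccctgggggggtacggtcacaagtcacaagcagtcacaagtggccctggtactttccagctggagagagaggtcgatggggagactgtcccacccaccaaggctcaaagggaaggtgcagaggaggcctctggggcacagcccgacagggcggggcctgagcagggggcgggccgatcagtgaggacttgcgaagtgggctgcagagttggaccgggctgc
Ncf1: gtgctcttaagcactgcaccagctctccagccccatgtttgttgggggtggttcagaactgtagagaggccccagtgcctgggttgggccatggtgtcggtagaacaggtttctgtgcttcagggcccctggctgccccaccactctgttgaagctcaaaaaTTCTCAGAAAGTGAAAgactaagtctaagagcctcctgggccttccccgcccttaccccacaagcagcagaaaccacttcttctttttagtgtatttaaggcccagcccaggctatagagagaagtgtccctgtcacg
With the start site counted as base 0, the Cybb window held the composite at bases 3 to 12, overlapping a PU.1 core at bases 9 to 14, and interferon-stimulated elements at bases -168 to -159, -124 to -115 and -29 to -20. The Ncf1 window held a gamma-activated site at bases -88 to -80 that overlaps an interferon-stimulated element at bases -82 to -73. The Cyba window held none of the 4 motifs. Over all 32851 promoter windows of this length, the shares with at least 1 match were 28.3% for the PU.1 core, 2.72% for the composite, 3.44% for the interferon-stimulated element and 8.3% for the gamma-activated site. These matches are descriptions of letters, and binding was not measured.

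Expression is given in rlog units (the regularized logarithm of DESeq2, base 2), which the authors computed from gene counts. It draws values toward each gene's mean, so folds taken from it can be smaller than those of raw counts. They are not scaled by gene length, so levels are compared between mice and not between genes. Groups were compared with limma, with 1 variance per gene pooled over the 9 mice, and a gene was called at a Benjamini-Hochberg adjusted p under 0.05 over all genes tested. Within a group, mouse pairs had a Pearson's r over all genes (not independent of each other) of 0.9699 to 0.9919 with CWG-cPIP, 0.978 to 0.9851 with vehicle in CUG300 mice and 0.9925 to 0.9964 in CUG10 mice. Hippocampal neuron markers were present in every mouse, and their summed level was 15.19 to 15.34 with CWG-cPIP, 14.84 to 15.26 with vehicle in CUG300 mice and 15.39 to 15.55 in CUG10 mice. The files hold no read totals, so the depth is unknown.

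To learn whether the long repeat changed the oxidase transcripts, CUG300 mice given vehicle were compared with CUG10 mice. All 5 subunit genes were higher in CUG300 mice given vehicle and their groups did not overlap, with log2 differences from 1.25 for Ncf1 to 2.63 for Cybb and a median of 1.86, against a median of -0.01 over all genes tested. Of all genes tested, 7.37% were called higher and 18.2% were higher with no overlap between these groups. Because more cells of a type and more RNA per cell both raise a transcript in bulk tissue, they cannot be told apart here.

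Among the membrane subunits, Cybb had rlog values of 8.82, 9.46 and 9.29 in CUG300 mice given vehicle, against 6.23, 7.16 and 6.28 in CUG10 mice. The lowest CUG300 mouse stood above the highest CUG10 mouse, which was replicate 2. Cybb averaged 9.19 ± 0.33 in CUG300 mice given vehicle and 6.56 ± 0.53 in CUG10 mice (SD, n = 3 each), a 6.2-fold difference (log2 difference 2.63, SE 0.51, limma adjusted p = 0.0241). It had the largest difference of the 5 genes, rank 136 among all genes tested. Cyba had 10.19, 9.49 and 10.34 in CUG300 mice given vehicle, against 8.02, 8.48 and 7.94 in CUG10 mice. Here CUG300 vehicle replicate 2 was the lowest of its group, whereas for Cybb it was the highest. Cyba averaged 10.0 ± 0.45 in CUG300 mice given vehicle and 8.15 ± 0.29 in CUG10 mice (SD, n = 3 each), a 3.62-fold difference (log2 difference 1.86, SE 0.49, limma adjusted p = 0.044), the closest of the 5 to the threshold.

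Among the cytosolic subunits, Ncf1 had 9.22, 9.27 and 9.58 in CUG300 mice given vehicle, against 7.9, 8.46 and 7.96 in CUG10 mice. It had the smallest difference of the 5 genes and the smallest standard error, with means of 9.35 ± 0.19 in CUG300 mice given vehicle and 8.11 ± 0.31 in CUG10 mice (2.37-fold, log2 difference 1.25, SE 0.27, limma adjusted p = 0.0274). Ncf4 had 6.93, 6.78 and 7.45 in CUG300 mice given vehicle, against 4.83, 5.43 and 4.98 in CUG10 mice (3.93-fold, log2 difference 1.97, SE 0.42, limma adjusted p = 0.0273). The GTPase gene Rac2 had 8.0, 8.35 and 8.76 in CUG300 mice given vehicle, against 6.29, 7.13 and 6.2 in CUG10 mice (3.56-fold, log2 difference 1.83, SE 0.40, limma adjusted p = 0.028). In all 5 genes replicate 2 was the highest of the CUG10 mice. The 5 calls depended on single mice: 0 of 5 passed when CUG10 replicate 1, 2 or 3, CUG300 vehicle replicate 3 or CWG-cPIP replicate 1 was left out, the last acting only through the pooled variance. The loss was not particular to the subunits, since of all 14867 genes, called in either direction, 1592 were called with every mouse, 0, 2 and 0 without CUG10 replicates 1, 2 and 3, 0 without CUG300 vehicle replicate 3, and 265 once CWG-cPIP replicate 1 was dropped. The log2 difference of every subunit stayed positive in each of these fits, at 1.14 or more.

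**Figure D1:**
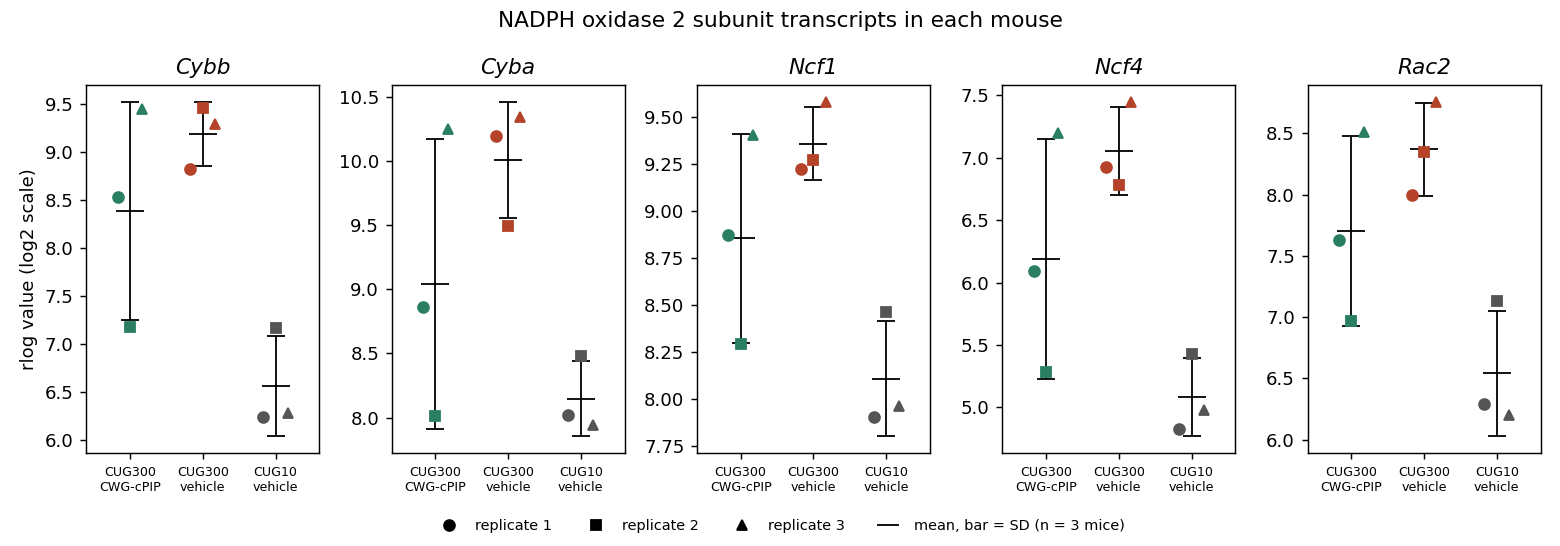
rlog value (log2 scale, vertical axis; each panel has its own range) of each subunit gene by mouse, groups being set out along the horizontal axis; points are single mice, the short line is the mean and the bar the SD of 3 mice. CUG300 mice given vehicle lie above CUG10 mice in all 5 panels (8.82 to 9.46 against 6.23 to 7.16 for Cybb), and the 3 CWG-cPIP-treated mice spread over 2.28 for Cybb and 1.11 for Ncf1.

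To learn whether CWG-cPIP changed these transcripts, treated CUG300 mice were compared with CUG300 mice given vehicle. All 5 means were lower with CWG-cPIP, but no subunit passed the test, and the treated mice differed widely from each other. The log2 differences were -0.80 for Cybb (95% interval -1.95 to 0.35), -0.96 for Cyba (-2.06 to 0.14), -0.50 for Ncf1 (-1.11 to 0.10), -0.86 for Ncf4 (-1.82 to 0.09) and -0.67 for Rac2 (-1.56 to 0.22), with limma adjusted p of 0.483 to 0.487. Neither no change nor a lowering by 1 on the log2 scale lay outside the interval of any of these 5 genes. Without CWG-cPIP replicate 2 the differences were -0.20 for Cybb, -0.45 for Cyba, -0.22 for Ncf1, -0.41 for Ncf4 and -0.30 for Rac2, and without CWG-cPIP replicate 3 they were -1.33, -1.57, -0.78, -1.37 and -1.07 for the same genes. Limma called 0 of 5 members and 0% of all genes here. At an unadjusted p under 0.05, 0 of 5 members were lower, against 3.6% of all genes, and 0 of 5 were lower with no overlap, against 3.5%.

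Cybb had 8.53, 7.18 and 9.45 in CWG-cPIP-treated mice, a range of 2.28, against a range of 0.64 in CUG300 mice given vehicle. Cyba had 8.86, 8.01 and 10.25 with CWG-cPIP, Ncf1 had 8.87, 8.29 and 9.4, Ncf4 had 6.09, 5.28 and 7.2, and Rac2 had 7.63, 6.97 and 8.51. In all 5 genes, treated replicate 3 lay within the range of CUG300 mice given vehicle, and treated replicate 1 lay between the ranges of the vehicle-treated groups. Treated replicate 2 lay within the range of CUG10 mice for Cyba, Ncf1, Ncf4 and Rac2, and just above it for Cybb. SDs of the 5 genes were 0.56 to 1.14 with CWG-cPIP, 0.19 to 0.45 with vehicle in CUG300 mice and 0.29 to 0.53 in CUG10 mice, against medians of 0.14, 0.22 and 0.1 over all genes tested in these groups.

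Treated CUG300 mice were also compared with CUG10 mice, to see what difference was left. All 5 means were higher in treated mice and none passed (limma adjusted p of 0.202 for Cybb, 0.464 for Cyba, 0.29 for Ncf1, 0.314 for Ncf4 and 0.265 for Rac2), with 0% of all genes called. The log2 differences were 1.83 for Cybb (95% interval 0.68 to 2.98), 0.89 for Cyba (-0.20 to 1.99), 0.74 for Ncf1, 1.11 for Ncf4 and 1.16 for Rac2. At an unadjusted p under 0.05, all but Cyba were higher, 4 of 5, against 8.12% of all genes. Only Cybb had no overlap between these groups, 7.18 or more in treated mice against 7.16 or less in CUG10 mice, whereas 13.4% of all genes were higher with no overlap. Without CWG-cPIP replicate 2, the treated mouse closest to CUG10 mice, 3 of 5 members (Cybb, Ncf1 and Ncf4) were called higher, and 567 of all 14867 genes were called in either direction.
Each subunit gene thus had its highest mean in CUG300 mice given vehicle, then in treated mice, then in CUG10 mice, and neither neighbouring pair in this order passed the test. These comparisons share mice: vehicle-treated CUG300 mice enter the first and the second, and CUG10 mice the first and the third. Limma's F test between the 3 groups called 0 of 5 members and 0% of all genes, with limma adjusted p of 0.0675 for Cybb to 0.119 for Cyba. All 5 had an unadjusted p under 0.05 in it, against 23.5% of all genes. The F test called 5 of 5 members and 1041 of all 14867 genes without CWG-cPIP replicate 2, and 5 of 5 members and 1483 of all genes without CWG-cPIP replicate 3.

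**Figure D2:**
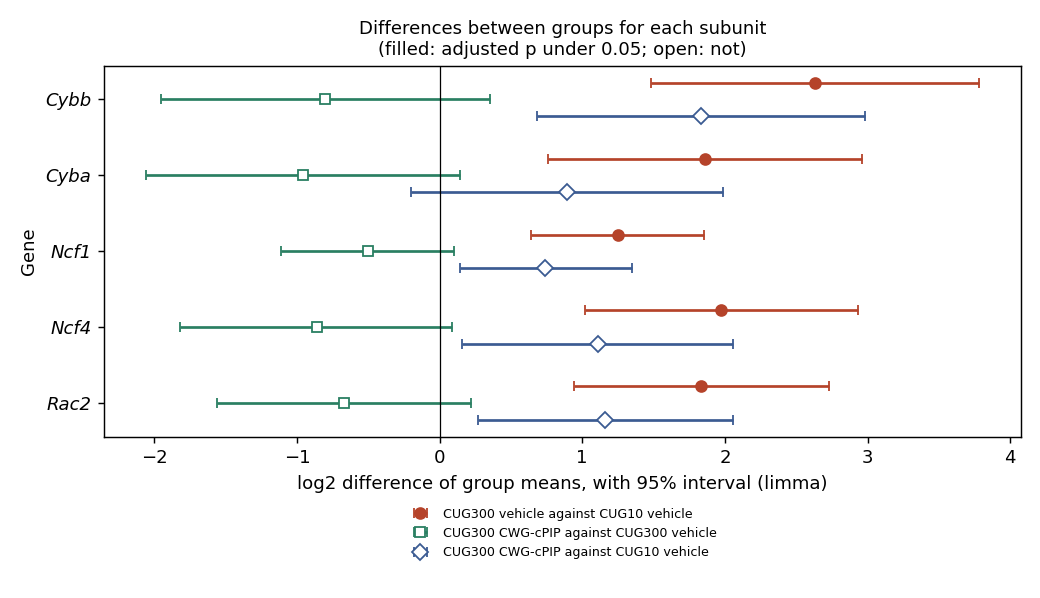
log2 difference of group means (horizontal axis) with its 95% interval from limma for each subunit gene (vertical axis), in the 3 comparisons; filled symbols passed an adjusted p of 0.05 and open symbols did not. The 5 intervals of CUG300 vehicle against CUG10 mice lie above 0, from 0.64 for Ncf1 upward, and those of CWG-cPIP against vehicle all include 0.

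The sizes of the differences were compared between subunits within each mouse, with tests that 3 mice against 3 cannot pass and on values that rlog may shrink by unequal amounts per gene. Per mouse, Cybb minus Ncf1 was -0.4, 0.19 and -0.29 in CUG300 mice given vehicle, against -1.67, -1.3 and -1.68 in CUG10 mice, a mean difference of 1.39 with no overlap between the groups. The exact permutation test (two-sided) gave p = 0.1 for this pair, the floor of this design, and adjusted p = 0.167 over the 10 pairs compared. With the same p, the mean differences were 0.80 for Cybb minus Rac2, 0.66 for Cybb minus Ncf4, 0.61 for Cyba minus Ncf1, -0.73 for Ncf1 minus Ncf4 and -0.59 for Ncf1 minus Rac2, all on the log2 scale. Among Cyba, Ncf4 and Rac2 the differences were -0.12 for Cyba minus Ncf4, 0.02 for Cyba minus Rac2 and 0.14 for Ncf4 minus Rac2 (exact two-sided permutation p = 0.5, 1.0 and 0.5). Cybb minus Cyba gave 0.78 (exact two-sided permutation p = 0.2), and on this measure CUG300 vehicle replicate 1 lay below CUG10 replicate 2. Since the 10 pairs come from 5 genes, they are not independent of each other.

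The oxidase is mainly a system of myeloid cells, so each subunit was also set against the mean of 7 pan-myeloid genes (Csf1r, Aif1, Ptprc, Cx3cr1, Laptm5, Ly86 and Ctss) in the same mouse. Of these 7 genes, 5 were themselves called higher with the long repeat under vehicle and 2 were not, with a median log2 difference of 1.37, from 0.17 to 2.53 for Ptprc, the leukocyte antigen CD45. Aif1 was higher by 1.63 and Ctss by 1.70. Csf1r, the growth factor receptor of microglia and macrophages, stood at 0.28 (limma adjusted p = 0.23). Relative to this mean, Ncf1 lay at -1.26 ± 0.12 in CUG300 mice given vehicle and -1.23 ± 0.06 in CUG10 mice (SD, n = 3 each), a difference of -0.03 whose sign turned when CUG300 vehicle replicate 1 was left out (0.0168). In treated mice Ncf1 lay at -1.22, -1.31 and -1.24. Its distance from this mean thus varied by little in any group while its own value varied by 1.11 among treated mice. Since the 7 genes themselves differed by 0.17 to 2.53, this distance depends on which genes were averaged.
Cybb relative to the same genes was -1.75, -1.1 and -1.42 in CUG300 mice given vehicle, against -2.97, -2.5 and -2.87 in CUG10 mice, a difference of 1.36 (exact two-sided permutation p = 0.1, adjusted p = 0.167 over 5 genes). The differences were 0.58 for Cyba and 0.70 for Ncf4 with the same p, and 0.56 for Rac2 (exact two-sided permutation p = 0.2). Leaving out single mice moved Cybb between 1.2 and 1.52 and Cyba between 0.46 and 0.813. In treated mice Cybb relative to these genes was -1.55, -2.42 and -1.18, and treated replicate 2 lay close to the CUG10 mice on this measure too.

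**Figure D3:**
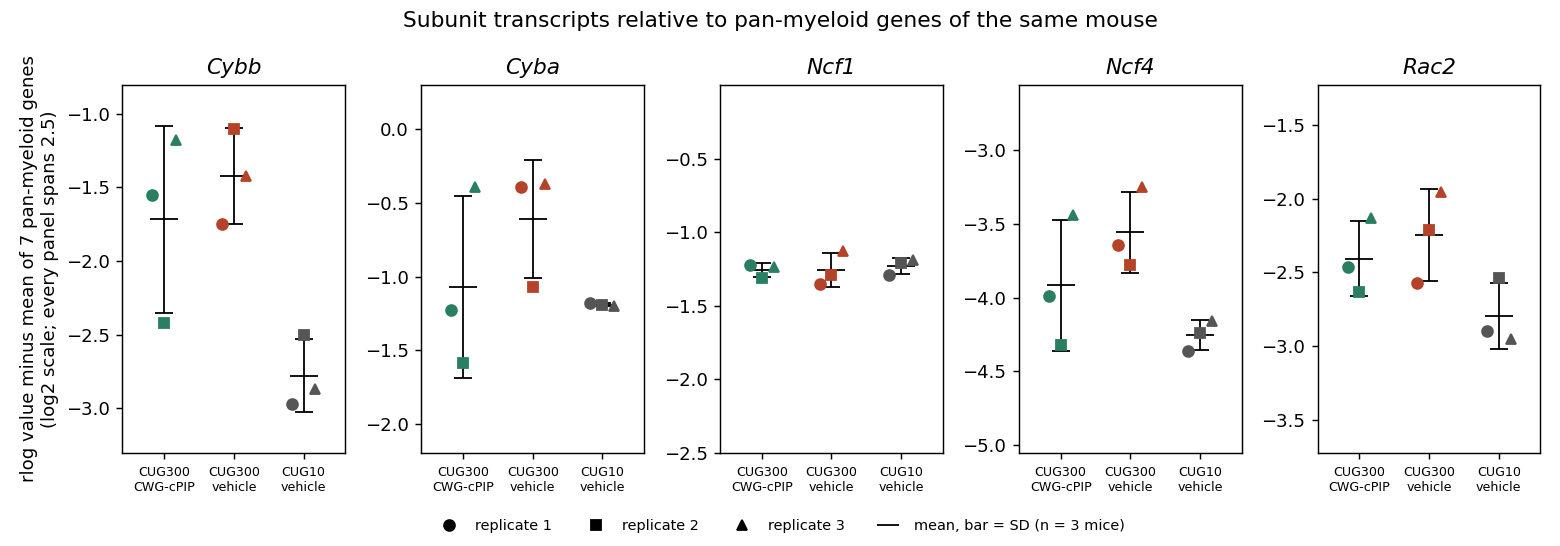
rlog value of each subunit gene minus the mean rlog value of 7 pan-myeloid genes in the same mouse (log2 scale, vertical axis, of equal span in every panel), groups being set out along the horizontal axis; points are single mice, the short line is the mean and the bar the SD of 3 mice. Ncf1 averages -1.26 to -1.23 in every group, and Cybb averages -1.42 in CUG300 mice given vehicle and -2.78 in CUG10 mice.

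Markers of some other cell types were also higher with the long repeat under vehicle, and those of others were not. Of 8 markers of recruited monocytes or macrophages, 7 were called higher with the long repeat under vehicle, among them the chemokine receptor gene Ccr2 (log2 difference 2.82) Ly6c2 (4.52) and Plac8 (4.38), and their summed level was 10.28 to 12.63 with CWG-cPIP, 12.24 to 12.78 with vehicle in CUG300 mice and 9.39 to 9.85 in CUG10 mice. In treated replicates 1, 2 and 3 that sum was 11.26, 10.28 and 12.63, the order they had for all 5 subunits. In CUG10 replicates 1, 2 and 3 it was 9.85, 9.8 and 9.39, whereas replicate 2 was the highest for all 5 subunits. The summed levels of pan-myeloid, T or NK cell, B cell and astrocyte markers had the same order in treated mice. Those of the remaining cell types below did not. With the long repeat under vehicle, astrocyte markers had 2 of 5 called higher, and oligodendrocyte and endothelial markers 0 of 4 each. Of 8 hippocampal neuron markers, 1 was called lower with the long repeat under vehicle (Fibcd1, a CA1 marker, -0.80, limma adjusted p = 0.0241) and 3 were lower at an unadjusted p under 0.05, with a median log2 difference of -0.09. Of 9 homeostatic microglia markers, 3 were called higher (Tmem119, Olfml3 and P2ry13), with a median log2 difference of 0.15, and P2ry12 stood at -0.34. Of 8 T or NK cell markers, 6 were called higher (median 1.26, with Gzma at 2.82 and Nkg7 at 1.81), and of 3 B cell markers tested, 1 was (Cd79a, 1.17). T and NK cells also express Rac2.
None of 9 neutrophil markers passed the filter on low values, and the summed level of the 8 in the files was 3.38 to 3.41 with CWG-cPIP, 3.35 to 3.52 with vehicle in CUG300 mice and 3.32 to 3.39 in CUG10 mice. S100a8 and S100a9, the most abundant transcripts of neutrophils among them, stood at 1.19 or less and 1.35 or less in every mouse. Choroid plexus markers, from tissue next to the hippocampus, varied too: their summed level was 10.27 to 10.79 with CWG-cPIP, 14.0 to 15.95 in CUG300 mice given vehicle, and 10.39, 13.35 and 14.87 in CUG10 replicates 1, 2 and 3. In CUG300 mice all 5 markers, like the subunits, averaged lower with CWG-cPIP than with vehicle, by log2 differences of -4.84 to -1.37. Each had an unadjusted limma p under 0.05 and none was called. They were also higher with 300 than with 10 repeats under vehicle (0.57 to 2.26, none called). Unlike the subunits, they were lower in treated than in CUG10 mice (-2.58 to -0.79, none called). Their level thus differed along with treatment. In treated replicates 1, 2 and 3 the summed level was 10.79, 10.27 and 10.73. The order of 3 mice within a group cannot show the part of these cells in the subunit differences, which was not tested.

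Of 5 other tested genes that belong to the complex or act with it, 1 (Hvcn1) was called higher and 4 did not pass. Their median log2 difference was 0.69. Hvcn1, the proton channel that balances the charge the oxidase moves, was higher in CUG300 mice given vehicle by 1.13 (SE 0.31, limma adjusted p = 0.0488). Rac1, the widely expressed relative of Rac2 that can serve the same complex, averaged 12.64 ± 0.12 in CUG300 mice given vehicle and 12.65 ± 0.04 in CUG10 mice (log2 difference -0.01, SE 0.09, limma adjusted p = 0.935). Rap1a, a small GTPase found with the membrane subunits, stood at 0.31 (limma adjusted p = 0.0753) and BC017643 at 0.69 (limma adjusted p = 0.0643). With CWG-cPIP against vehicle, none of these 4 genes passed (limma adjusted p of 0.483 or more).
Of 9 other genes of the NADPH oxidase family (Nox1, Nox3, Nox4, the dual oxidases and their helpers), 8 were under the minimum expression and Nox3 was listed at 0 in every mouse. Nox1 stood at 2.76 to 3.39 over the 9 mice. Nox4, close to the minimum mean of 3.32 and not tested, stood at 3.36 to 3.83 in CUG300 mice given vehicle. It stood at 3.19 to 3.35 with CWG-cPIP and 3.07 to 3.3 in CUG10 mice. Only Noxo1, the organizer of NOX1, was tested, and it stood at 0.06 (limma adjusted p = 0.76).

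Receptors and signaling genes that set the oxidase off were also listed. Of 11 surface receptors tested, 9 were called higher with the long repeat under vehicle and 2 did not pass, with a median log2 difference of 1.29. The high-affinity IgG receptor gene Fcgr1 (2.64), the bacterial lipopeptide receptor gene Tlr2 (2.61) and Fcgr3 (1.13) were among them, whereas the beta-glucan receptor gene Clec7a just missed the threshold (1.21, limma adjusted p = 0.0515). Of 16 signaling genes between receptors and oxidase, 8 were called higher, 1 lower and 7 did not pass (median 1.15). The kinase gene Fgr (2.32) and Vav1 (1.76), an exchange factor that loads Rac with GTP, were higher, and Vav3 stood at 0.49 (limma adjusted p = 0.207). The gene called lower was Pak1, a Rac-activated kinase that neurons also express (-0.53, limma adjusted p = 0.0274). With CWG-cPIP against vehicle, none of the 11 receptor and 16 signaling genes was called, and 1 of them (Fcgr3) had an unadjusted p under 0.05.
Of 8 transcription factor genes known to act on oxidase subunits, 7 were tested and all 7 were called higher in CUG300 mice given vehicle, with a median log2 difference of 1.79. Spi1, which encodes PU.1, had 7.84, 7.01 and 8.93 with CWG-cPIP, 8.64, 8.48 and 9.06 in CUG300 mice given vehicle, and 6.7, 7.31 and 6.8 in CUG10 mice (log2 difference of the vehicle-treated groups 1.79, SE 0.42, limma adjusted p = 0.0328). Irf1 was higher by 2.93 and Irf8, a myeloid partner of PU.1, by 1.82. None of the 7 was called with CWG-cPIP against vehicle, where Irf1 stood at -1.04 (limma adjusted p = 0.483).

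The list for removal of superoxide and peroxide also held genes that act on neither, such as Hmox1. Of its 21 tested genes, 1 was called higher with the long repeat under vehicle, 0 lower and 20 did not pass. Their median log2 difference was 0.19. The called gene was Hmox1, the heme oxygenase induced by oxidants and heme, at 10.02, 9.57 and 10.48 in CUG300 mice given vehicle, against 7.49, 7.92 and 7.6 in CUG10 mice (2.35, SE 0.45, limma adjusted p = 0.0235). With CWG-cPIP it had 9.05, 7.9 and 9.94, with replicate 2 again within the range of CUG10 mice. The superoxide dismutase genes Sod1 and Sod2 stood at 0.16 and -0.04 (limma adjusted p = 0.703 and 0.84), and the glutathione peroxidase gene Gpx1 at 0.70 (limma adjusted p = 0.0861). Of 2 other oxidant-producing enzymes tested, the xanthine dehydrogenase gene Xdh was called (1.31, limma adjusted p = 0.0363) and the inducible nitric oxide synthase gene Nos2 was not (1.16, limma adjusted p = 0.0506). Myeloperoxidase, which uses the peroxide made from superoxide, was under the minimum expression.

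**Figure D4:**
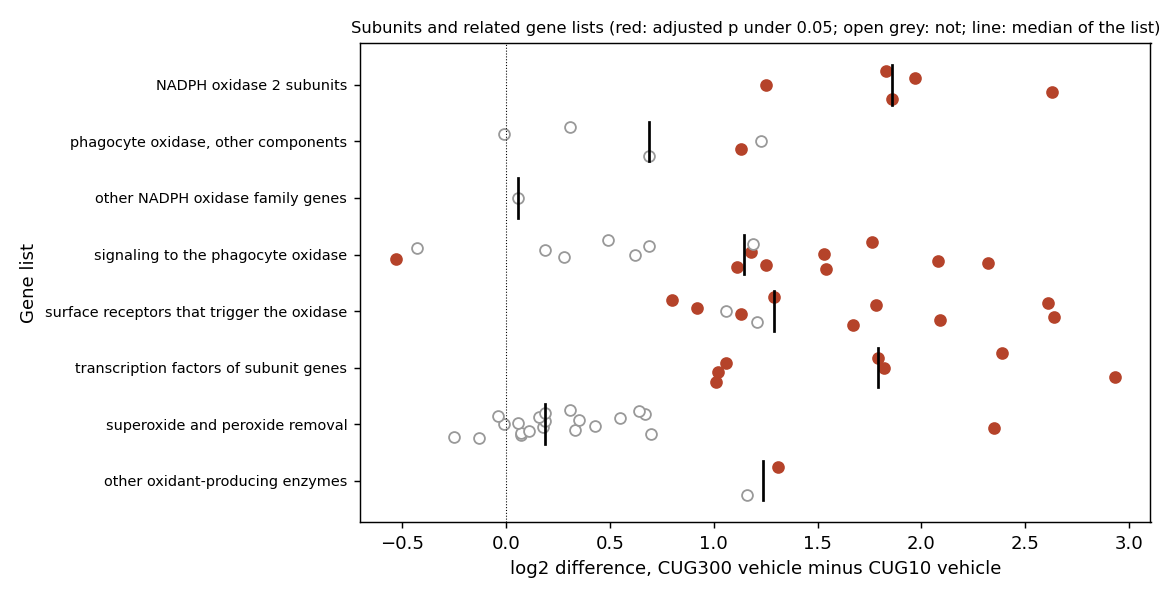
log2 difference of CUG300 mice given vehicle from CUG10 mice (horizontal axis) for the 5 subunit genes and for each tested gene of 7 related lists (vertical axis); red points passed an adjusted p of 0.05, open grey points did not, and black lines are medians. The subunits lie between 1.25 and 2.63, and the transcription factors between 1.01 and 2.93. The superoxide and peroxide removal list lies around a median of 0.19, with Hmox1, a heme oxygenase gene, alone at 2.35.

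The genes most like each subunit over the 9 mice were found by the root mean square difference between values centred on each gene's own mean. For Cybb they were Il2rg (0.10), the shared chain of several cytokine receptors, Ms4a4b (0.17) and Slfn5 (0.17). For Cyba they were Clic1 (0.12), Bcl2a1b (0.14) and Mvp (0.15), where Bcl2a1b belongs to a family of close copies. For Ncf1 they were Laptm5 (0.05), which is also among the 7 pan-myeloid genes, and C1qc and C1qb (0.08 each), which encode chains of complement C1q. For Ncf4 they were Nfkb2, Spi1 (0.08 each) and Hcls1 (0.09), and for Rac2 Ly9 (0.08), Ptpn6 (0.12) and Mpeg1 (0.13). No subunit was among the 3 nearest genes of another. The closest subunits were Cyba and Ncf4 (0.19), with Ncf4 at rank 13 from Cyba, and the farthest were Cybb and Ncf1 (0.68).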

How the data were processed

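RNA from 9 hippocampi, 1 per mouse, was sequenced from libraries of a directional kit. Per the labels and the study's methods, the authors used Trim Galore 0.6.6 on the reads, STAR 2.7.9a and RSEM 1.3.3 against GRCm38/mm10, and DESeq2 1.36.0 for the deposited rlog values, which are on a log2 scale. The rlog options, annotation and use of strand are not stated. No counts are at hand, so no count model was used.
Genes whose mean over all mice reached log2(10), 14867 of 24411, were tested with limma 3.58.1 in R 4.3.3 (1 mean per group, variance trend, 3.03 prior degrees of freedom, Benjamini-Hochberg adjustment). Differences within a mouse were tested with exact permutation tests (scipy 1.17.1). A list's summed level is the log2 of the sum of its linear values. The limma step was tested on simulated data. The members and lists were chosen with earlier results of these data known. Named genes were the 2 heading each list and the 2 that differed most by log2 between CUG300 vehicle and CUG10 mice. Added to them were every other listed gene of the complex or acting with it, and the 3 nearest patterns per subunit. Other genes are named for their counts or roles, after their values were seen. Not every gene so chosen is reported here. Alternatives were median centering, quantile scaling, other filters, limma without trend or robust, only the groups compared, an adjusted p under 0.01, a replicate block and leaving out each mouse.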

Additional observations from a re-analysis of the deposited data

How the results depend on the processing

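For the long against the short repeat under vehicle, the count of 5 subunits called was 4 or 5 without a filter, with a minimum of log2(100) (where Ncf4 was not tested), with quantile scaling or median centering, with limma without trend or robust and only the groups compared, and 0 at an adjusted p under 0.01. Leaving out each mouse gave 0 to 5. For CWG-cPIP-treated against CUG10 mice it was 0, and 0 to 3 leaving out each mouse, and for the F test 0, and 0 to 5. For CWG-cPIP against vehicle it was 0 in every setting run. No log2 difference of a subunit changed sign in any setting, and those of CWG-cPIP against vehicle ranged from -1.57 to -0.20. The sign turned for Cyba minus Ncf4 with quantile scaling (0.00346) and, leaving out each mouse, its values ended at -0.268 to 0.0033, for Cyba minus Rac2 at -0.252 to 0.274, and for Ncf1 minus the pan-myeloid mean at -0.0947 to 0.0168. Same-numbered mice did not deviate together throughout (correlations of deviations -0.499 to 0.413), so the numbers were not taken to pair mice; with the replicate block, 5 subunits were called in CUG300 vehicle against CUG10 mice (Cybb 2.63, adjusted p = 0.0339 by limma) and 0 in the other comparisons. Median centering shifted the median gene by -0.0766 in CUG300 vehicle against CUG10 mice. The depth is unknown, and 3 mice per group give wide intervals. Limma p-values set differences of group means against the spread between these mice, moderated by that of all genes.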
